A study of Mus musculus with 6 samples.

Results

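The replication-dependent histone genes are the genes named Hist1h to Hist4h in the mouse, and 64 of them are described here across 6 single-cell libraries of mouse skull. Of 27840 genes detected in more than 3 cells, 67 had a symbol of this pattern, out of 70 such symbols in the files. Members were chosen by their own counts: a symbol was kept if it had at least 50 unique molecular identifiers (UMIs, which count captured RNA molecules) over the 6 libraries. That gave 6 genes for the linker histone H1, 17 for H2A, 17 for H2B, 11 for H3 and 13 for H4. The members nearest the limit inside it were Hist1h1t, a testis linker histone, with 62 UMIs and Hist1h3h with 127. Outside it were Hist1h2aj with 17 UMIs, Hist2h2aa2 with 13 and Hist1h2bq with 7. The limit used these same counts, so being measured at all is no result.

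DNA in the nucleus is wound around an octamer of H2A, H2B, H3 and H4, and H1 binds the DNA between such octamers. When a cell copies its genome in S phase it needs a new set of histones, and the replication-dependent genes supply most of it. Their messenger RNAs have no introns as a rule and end in a short stem-loop instead of a poly(A) tail. The stem-loop-binding protein Slbp holds that end, and the RNA is degraded when DNA synthesis stops. Some of these genes are known to give polyadenylated RNA as well, also in differentiated cells, while variant histones such as those of H3f3a, H3f3b and H2afz are made throughout the cell cycle. Droplet libraries of the kind used here start from an oligo-dT primer, so the counts are those of histone RNA that such a primer caught, not of all histone RNA.

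The study set out to compare marrow niches of the cranial bones with age. Calvarial cells came from untreated wild-type C57BL/6 mice, stated to be male, at 2 months (02m), 12 months (12m) and 18 months (18m). The CBMA libraries hold the sagittal suture with parietal bone beside it, and the CBMD libraries hold parietal bone away from the suture. Dura and periosteum had been taken off, red blood cells lysed and dead cells removed. Each age and site is 1 library that pools 6 to 8 mice, so no value has a replicate and nothing below is a test. Intervals are exact 95% Poisson or binomial intervals and cover counting error only, not the spread between mice.

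After filtering, 37576 cells of 43420 barcodes remained, with 2718 to 8580 cells, 12641777 to 50752510 UMIs and a median of 2805.5 to 3930.5 UMIs per cell in a library. Of 37414 distinct barcodes, 161 occurred in more than 1 library. Clustering without the histone genes gave 21287 neutrophil-like cells, 7176 monocyte or macrophage-like cells, 1570 myeloid progenitor-like cells and smaller classes, among them 621 mesenchymal cell-like cells. Both 12m libraries went against the stated sex: Xist, the RNA of the inactive X chromosome, stood at 564 CPM (UMIs scaled to 1000000 per library) in CBMA_12m and 596 in CBMD_12m, against 0.252 to 0.360 in the other 4. Y-linked genes were present in all 6, at 81.0 and 91.2 CPM in the 12m libraries and 126 to 215 in the others. The comparison of 18m with 02m does not use the 12m libraries, and pooled values are also given without them.

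All 64 members matched the GENCODE M21 annotation (build GRCm38) by gene ID, 62 as protein-coding genes and 2 as pseudogenes, and 61 had a single exon. On chromosome 13 lay 52 of them, in blocks at chr13:21715763-21837530 with 17 members, chr13:22035164-22043676 with 5 and chr13:23531050-23764406 with 29, plus Hist1h2al on its own. Chromosome 3 held 8 members, chromosome 11 held 3 and chromosome 6 held Hist4h4. In 44 members the annotated transcript contained the histone stem-loop, and in the other 20, among them Hist1h1b and Hist1h2bc, it did not. The 3′ windows below show the stem-loop of abundant members of each family, since this is the sequence that sets the group apart from other messenger RNAs. For H2B the window is that of Hist1h2bj, with 11100 UMIs, although Hist1h2be, with 12052, also had a stem-loop. Capitals mark the 16-base stem-loop and lower case the 12 bases before it, from GENCODE M21 transcripts, 5′ to 3′ on the strand of the gene.
Hist1h2ap (H2A, chr13:21833029-21833056, minus strand): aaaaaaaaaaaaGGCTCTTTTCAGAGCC
Hist1h2ae (H2A, chr13:23570668-23570695, minus strand): aaaaaaaacaaaGGCTCTTTTCAGAGCC
Hist1h1e (H1, chr13:23621782-23621809, minus strand): caacaacccaaaGGCTCTTTTCAGAGCC
Hist1h1c (H1, chr13:23739500-23739527, plus strand): aacaatccaaaaGGCTCTTTTCAGAGCC
Hist1h2bj (H2B, chr13:22043626-22043653, plus strand): accaaatccaaaGGCTCTTTTCAGAGCC
Hist1h3c (H3, chr13:23745047-23745074, minus strand): tatttaaaaaaaGGCTCTTTTAAGAGCC
Hist1h4d (H4, chr13:23581938-23581965, plus strand): ccaaaaaccaaaGGCCCTTTTCAGGGCC
The 16 bases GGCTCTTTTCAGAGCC occurred in 24 members of H1, H2A, H2B and H3, and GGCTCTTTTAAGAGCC in 6 members. All 12 H4 members with a stem-loop had a stem of other bases, most often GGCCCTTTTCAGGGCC, in 7 of them. A run of at least 6 A within the 20 bases before the stem-loop was present in 4 members, Hist1h2ap and Hist1h2ao with 12, Hist1h2ae with 8 and Hist1h3c with 7. These 4 members carried 44.0% of all histone UMIs, most of it from Hist1h2ap with 32.5%, while Hist1h2ao with the same run had 564 UMIs.

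RefSeq promoters (GRCm38.p6, from 250 bases before to 50 after the start) were matched for 57 members. The letters CCAAT, on either strand, were present in 84.2% of them and in 37.9% of all 27025 promoters. By family, CCAAT was in every matched H1, H2A, H2B and H3 promoter but in 3 of 12 H4 promoters. The octamer ATTTGCAT, on either strand, was in 6 of 16 H2A and 5 of 14 H2B promoters and in no promoter of H1, H3 or H4, against 1.75% of all promoters. The letters TATAAA, on either strand, were in 57.9% of members and 14.2% of all promoters. Several H2A and H2B genes lie head to head. Some such pairs, Hist1h2ap with Hist1h2br and Hist1h2an with Hist1h2bp among them, had the octamer in neither promoter. In the pairs shown here the same octamer falls in both promoters, with the octamer in capitals and each window read on the strand of its own gene.
Hist1h2ae (H2A, chr13:23571331-23571358, minus strand): tagaggttctATGCAAATaagggactca
Hist1h2bg (H2B, chr13:23571331-23571358, plus strand): tgagtcccttATTTGCATagaacctcta
Hist1h2ah (H2A, chr13:22035781-22035808, minus strand): agaacttcgtATGCAAATaaagtgaaat
Hist1h2bk (H2B, chr13:22035781-22035808, plus strand): atttcactttATTTGCATacgaagttct
A match of letters is a description of the window and not evidence of a bound factor. The coding sequences are close copies of each other: the 13 H4 members have 12 distinct coding sequences and 1 protein, the 11 H3 members 2 proteins, and 16 coding H2A members 8 proteins. Reads that fit several copies are not assigned to a gene in counts of this kind, so the split between near-identical members is uncertain. In addition, 6 members overlap another gene on the same strand, Hist1h1e and Hist1h2be among them, and 20 on the other strand.

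A few members carried most of the counts. The 64 members had 983414 UMIs, of which Hist1h2ap alone had 320092, or 32.5%. Hist1h2ae, the next H2A gene, had 9.57% and Hist1h1e, a linker histone, 7.67%, so that these 3 held 49.8%. By family, H2A held 50.0% of the UMIs, H1 23.9%, H2B 11.2%, H4 8.25% and H3 6.63%. These are counts of 3′ tags, so they rank captured molecules per gene, and the capture of each RNA may differ.

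Cells were split by Mki67, a nuclear protein of dividing cells, and Top2a, the DNA topoisomerase of dividing cells: those with at least 2 UMIs of the 2 genes together were called cycling. In cycling cells the members together stood 6.31-fold (6.26 to 6.36) above non-cycling cells of the same library in CBMA_02m, 8.08-fold in CBMA_12m and 13.4-fold in CBMA_18m. The ratio was 7.16 in CBMD_02m, 7.19 in CBMD_12m and 11.9 in CBMD_18m, so it was wider at 18m than at the other ages at both sites. Cycling cells were deeper, with a median of 6861.5 to 11181 UMIs against 2422 to 3505. With the gate set on cells thinned to 1000 UMIs, the lowest of the 6 ratios was 3.20.

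Over the 6 libraries pooled, 61 of 64 members were at least 1.5-fold higher in cycling cells, where 28.4% of 18847 genes were. The median ratio over members was 15.2, beside 1.03 over all genes, and 61 members were higher in every one of the 6 libraries, as were 25.1% of genes. For 6 of these members a library had no UMI in non-cycling cells. The highest ratios were those of Hist1h2af (H2A, 89.0, interval 71.4 to 112), Hist1h3c (H3, 63.8) and Hist1h2ab (H2A, 61.9). Hist1h3c stood at 291, 114 and 218 CPM in cycling cells of CBMA_02m, CBMA_12m and CBMA_18m, against 5.58, 5.23 and 1.28 CPM in the non-cycling cells. In CBMD the same ages gave 350.1, 109 and 202 CPM against 8.75, 2.68 and 1.13. No library's non-cycling value of Hist1h3c came near its cycling value. Without the 12m libraries 61 members were again at least 1.5-fold higher, with a median ratio of 15.1.

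Of the 64, 3 members were lower in cycling cells. Hist1h2bc, an H2B gene whose annotated transcript has 2 exons and no stem-loop, had a ratio of 0.51 and was lower in cycling cells in all 6 libraries. Its CPM was 129, 66.5 and 75.5 in cycling cells of CBMA at 02m, 12m and 18m, against 280.4, 104 and 164 in non-cycling cells, and at CBMD 128, 90.0 and 54.5 against 319, 107 and 146. Among non-cycling classes it was highest in neutrophil-like cells, at 357 CPM with the libraries pooled. Mesenchymal cell-like cells followed at 182 CPM, erythroid cell-like at 172 and mural cell-like at 137, and T or NK cell-like cells were lowest at 19.6. In neutrophil-like cells alone it ran from 191 CPM in CBMD_12m to 475 in CBMD_02m. Taken class by class, Hist1h2bc was lower in cycling cells of the neutrophil-like (200 CPM), erythroid, mesenchymal and mural cell-like classes. In the other classes it was higher in cycling cells, at 106 against 77.2 CPM in monocyte or macrophage-like cells. Myeloid progenitor-like cells gave 88.9 against 76.6 CPM. The part of class make-up in the ratio of 0.51 was not tested. Hist3h2a (H2A, ratio 0.80) was also lower in cycling cells in every library, while Hist2h3c2 (H3) had a ratio of 0.80 with an interval of 0.63 to 1.01. Hist1h1c, a linker histone, was closer to even, at 1.64 over all classes. Within classes it stood at 772 CPM in cycling against 312 in non-cycling neutrophil-like cells. The values were 265 against 124 CPM in monocyte or macrophage-like and 569 against 188 in myeloid progenitor-like cells. It was lower in cycling cells only in the mural cell-like class, of which 3 cells were cycling. Family medians of the ratio ran from 7.81 for H1 and 8.75 for H2B through 11.3 for H4 and 17.3 for H2A to 18.2 for H3.

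**Figure D1:**
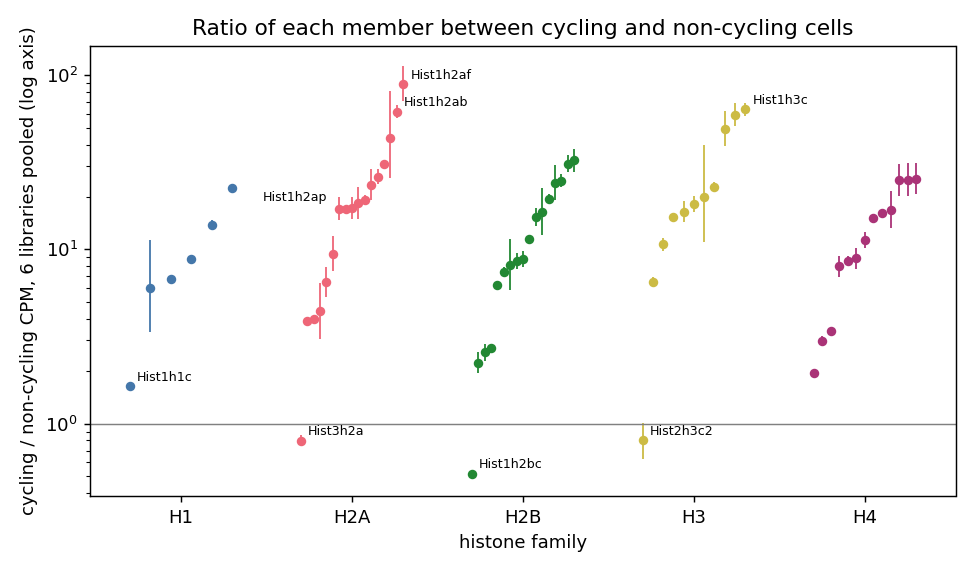
Each point is a member, placed by histone family (horizontal axis) and by its CPM in cycling cells divided by that in non-cycling cells, 6 libraries pooled (vertical log axis), with 95% counting intervals as bars. Most members lie well above the line at 1, up to 89.0 for Hist1h2af, while Hist1h2bc, Hist3h2a and Hist2h3c2 lie below it.

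The comparison of ages separates how many cells cycle from how much histone RNA a cycling cell holds, and both were lower at 18m than at 02m. Over all cells the members together made up 8808 CPM in CBMA_02m, 3767 in CBMA_12m and 2118 in CBMA_18m, and 6468, 2084 and 2127 CPM in the CBMD libraries. Both 02m libraries stood above all others, and 59 of 63 members measured at CBMA and 56 of 62 at CBMD were lower at 18m by 1.5-fold or more, where 13.2% and 14.6% of genes were. The 18m to 02m ratio was 0.240 (0.239 to 0.242) at CBMA and 0.329 (0.326 to 0.331) at CBMD. The filter that removes cells with over 5000 genes bears on this: of 1587 barcodes it removed, 1518 were cycling, and without it the ratios were 0.393 and 0.414.

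The share of cycling cells was 26.2% (25.2 to 27.1) in CBMA_02m, 18.8% (17.4 to 20.4) in CBMA_12m and 10.3% (9.57 to 11.0) in CBMA_18m. In CBMD it was 17.4% (16.6 to 18.2), 11.0% (10.1 to 12.0) and 11.6% (10.9 to 12.4). With each cell thinned to 1000 UMIs, and 58 to 339 shallower cells left out per library, the shares were 11.0%, 9.30% and 5.02% at CBMA and 7.01%, 4.53% and 5.84% at CBMD. For reference, the gate took 9 of 390 endothelial cell-like cells, whose median depth was 2663 to 5275.5 UMIs over the libraries, and 15 of 621 mesenchymal cell-like cells, at 2258 to 7566.5 UMIs. Among monocyte or macrophage-like cells, at 6488 to 9615.5 UMIs, it took 3137 of 7176.

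Within cycling cells the members together stood at 15713 CPM in CBMA_02m, 8752 in CBMA_12m and 7823 in CBMA_18m. In CBMD they stood at 14653, 6645 and 6741 CPM. Each 02m library was again above the later ones, and 18m was 1.12-fold lower than 12m at CBMA and 1.01 times 12m at CBMD. At 18m the level was 2.01-fold lower than at 02m at CBMA (ratio 0.498, 0.494 to 0.502) and 2.17-fold lower at CBMD (0.460, 0.456 to 0.464). In molecules per cycling cell this was 170 histone UMIs in CBMA_02m against 88.7 in CBMA_18m, and 165 against 73.8 at CBMD, with median depths of 9644.5 and 10857 UMIs at CBMA and 11181 and 10151.5 at CBMD.

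The split can be put in CPM over all cells. Had the UMIs of CBMA_18m been divided between cycling and non-cycling cells as in CBMA_02m, its own levels would give 4043 CPM, and its own division with the levels of 02m would give 5292 CPM, against 8808 CPM measured in CBMA_02m. The same sums for CBMD_18m were 2730 and 5237 CPM against 6468. The cycling cells' share of all UMIs behind this was 47.8% in CBMA_02m, 21.2% in CBMA_18m, 35.1% in CBMD_02m and 25.3% in CBMD_18m.

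**Figure D2:**
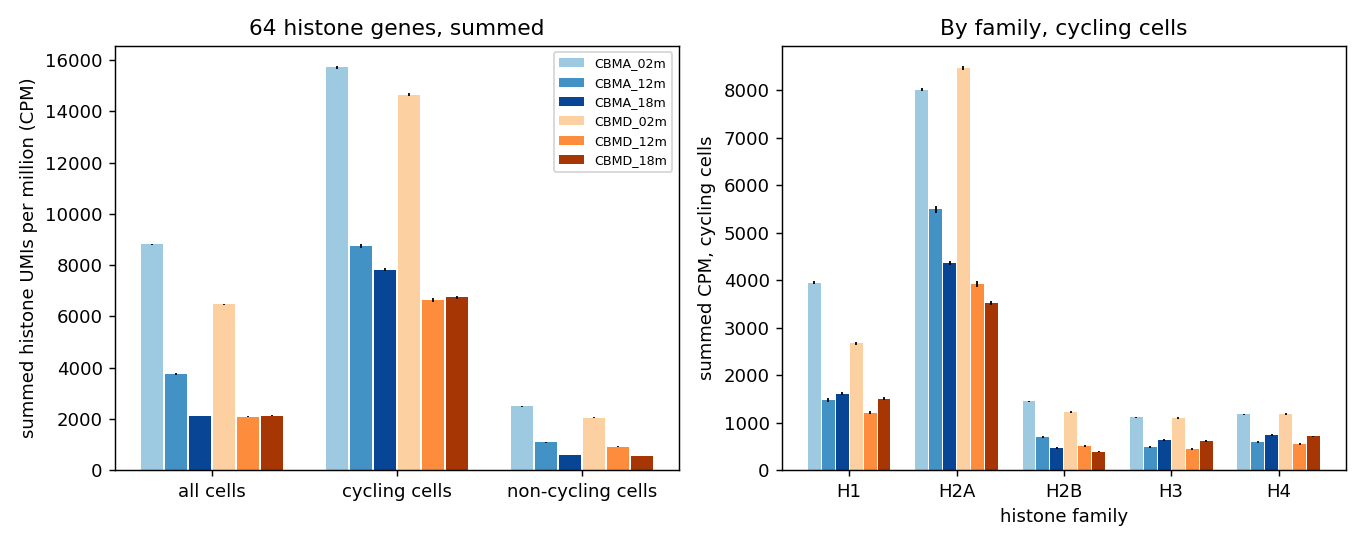
Bars give summed histone CPM per library (light to dark for 02m, 12m and 18m, blue for CBMA and orange for CBMD), on the left for all 64 members in all, cycling and non-cycling cells and on the right by family in cycling cells, with 95% counting intervals as lines. In cycling cells the 02m bars reach 15713 and 14653 CPM and the later ones lie between 6645 and 8752, and in every family both 02m bars are the tallest.

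Member by member, 46 of 62 measured in cycling cells were lower by 1.5-fold or more at 18m against 02m at CBMA and none was that much higher, where 8.88% of 12501 genes were lower and 26.5% higher. In CBMD 50 of 60 were lower and none higher, against 12.0% and 21.9% of 12119 genes. Members and genes were measured on UMIs summed over both ages, so those that passed through 02m alone could hardly come out other than lower. The median log2 ratio was -1.42 over members and 0.22 over all genes at CBMA, and -1.30 and 0.13 at CBMD, so the general shift was opposite to that of the members. Of 60 members measured at both sites, 42 were lower at both, that is 42 of the 46 and 42 of the 50, where 5.91% of 11893 genes were lower at both. The log2 ratios of the 2 sites, which share no library but may share mice, had a Pearson r of 0.80 and a Spearman rho of 0.77 across these 60 genes, which are not independent of each other.

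**Figure D3:**
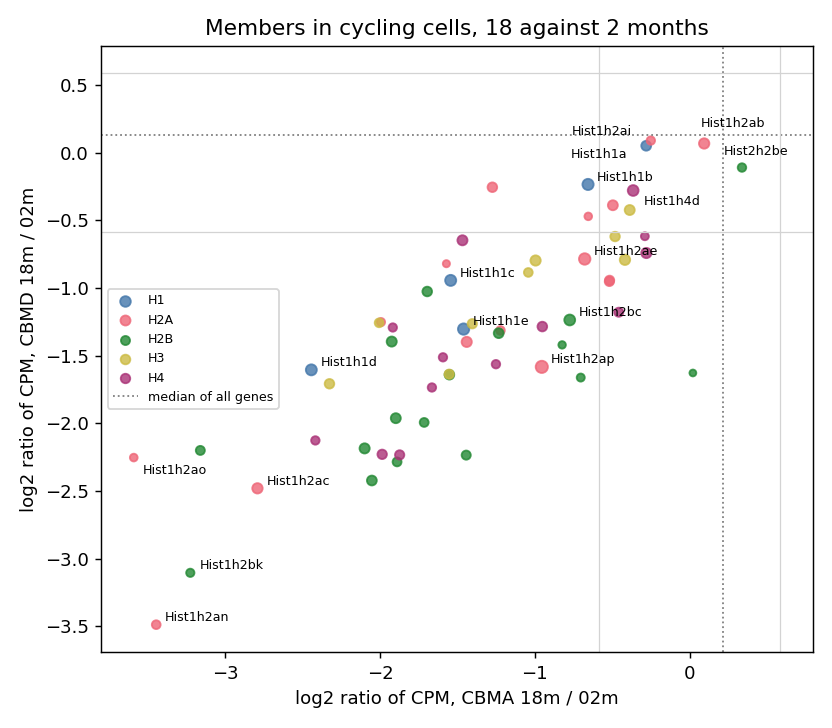
Each point is a member measured at both sites, with its log2 ratio of CPM in cycling cells at 18m over 02m at CBMA (horizontal axis) and CBMD (vertical axis). Colours give the family, larger points more UMIs, dotted lines the median of all genes (0.22 and 0.13) and grey lines 1.5-fold. Most points lie at the lower left, down to Hist1h2an at -3.45 and -3.49, and Hist1h2ab, Hist1h1a and Hist2h2be lie near 0.

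The linker histones, which bind between nucleosomes, were 2.45-fold lower as a sum at 18m at CBMA and 1.77-fold lower at CBMD. From here on, 3 values in a row are those at 02m, 12m and 18m, in that order, in cycling cells unless non-cycling cells are named. Hist1h1e stood at 1316, 494 and 478 CPM at CBMA and 937, 362 and 380 at CBMD. Hist1h1d stood at 910, 356 and 167 CPM at CBMA and 509, 178 and 167 at CBMD. For both genes the 02m library was the highest of its site, and at 18m Hist1h1e was 2.75-fold and 2.47-fold lower and Hist1h1d 5.44-fold and 3.04-fold lower. Hist1h1c was 2.91-fold lower at CBMA and 1.92-fold at CBMD. Hist1h1b had a smaller difference, with 1105, 410 and 701 CPM at CBMA and 802, 405 and 681 at CBMD, and Hist1h1a was nearer to its 02m level at 18m, with a ratio of 0.82 (0.76 to 0.89) at CBMA and 1.04 (0.96 to 1.12) at CBMD. Linker histone genes thus differed among themselves: 4 of 5 measured were at least 1.5-fold lower at CBMA and 3 of 5 at CBMD. Over all genes the shares were 8.88% and 12.0%, and they also stand beside the counts of the other families for this comparison.

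Among H2A genes, 11 of 16 were lower at each site. Hist1h2ap stood at 5164, 4284 and 2664 CPM at CBMA and 5750, 2860 and 1920 at CBMD, a 1.94-fold and a 3.00-fold lower level at 18m than at 02m. Without this gene the other members together were 2.04-fold lower at CBMA and 1.85-fold at CBMD, so the difference was also there without it. Hist1h2ae was lowest at 12m, with 1656, 598 and 1035 CPM at CBMA and 1663, 574 and 965 at CBMD. Hist1h2ac had a wider gap, with 253, 102 and 36.6 CPM at CBMA and 217, 62.8 and 38.8 at CBMD, 6.92-fold and 5.58-fold lower at 18m. Hist1h2ab stood out the other way: 277, 123 and 295 CPM at CBMA and 260.4, 153 and 273 at CBMD gave ratios of 1.07 (1.02 to 1.12) and 1.05 (1.00 to 1.10) at 18m.

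Among the largest differences at both sites were those of less abundant genes. Hist1h2an (H2A) stood at 36.3, 28.3 and 3.33 CPM at CBMA and 37.3, 14.8 and 3.32 at CBMD, 10.9-fold and 11.2-fold lower at 18m. Hist1h2bk (H2B) stood at 22.2, 18.1 and 2.38 CPM at CBMA and 16.3, 8.75 and 1.90 at CBMD, 9.35-fold and 8.60-fold lower. For both the 12m value lay nearer to 02m than to 18m at CBMA. Hist1h2ao, whose 3′ window has the same letters as that of Hist1h2ap, had 243 UMIs in cycling cells of CBMA_02m and 7 in CBMA_18m, a ratio of 0.08 (0.03 to 0.17).

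H2B was the family with the largest share of lower members, 15 of 17 at CBMA and 16 of 17 at CBMD, and its sum was 3.11-fold and 3.18-fold lower at 18m. Hist1h2be stood at 148, 82.3 and 34.5 CPM at CBMA and 130.1, 66.4 and 28.6 at CBMD. Hist1h2bj stood at 231, 80.5 and 60.8 CPM at CBMA and 174, 61.9 and 66.2 at CBMD. Hist1h2bc, which over all classes was lower in cycling cells, was also lower at 18m in cycling cells, 1.71-fold and 2.36-fold. Hist2h2be, singled out after its values were seen, was the H2B gene furthest above its family, with ratios of 1.26 (1.01 to 1.58) and 0.93 (0.70 to 1.21).

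The sum over H4 was 1.58-fold and 1.66-fold lower at 18m, and that over H3 1.76-fold and 1.79-fold. By member the order was different: the median log2 ratio of H4 genes was -1.47 at CBMA and -1.29 at CBMD, and that of H3 genes -1.04 and -0.89. Hist1h3e stood at 252, 94.7 and 126 CPM at CBMA and 234, 97.2 and 135 at CBMD, 1.99-fold and 1.74-fold lower at 18m. Hist1h3c was 1.34-fold and 1.73-fold lower and Hist1h3f 1.31-fold and 1.34-fold. Among H4 genes, which all encode the same protein, Hist1h4d stood at 494, 256 and 383 CPM at CBMA and 475, 277 and 391 at CBMD and was 1.29-fold and 1.21-fold lower at 18m. Hist1h4i, with 125, 59.9 and 45.2 CPM at CBMA and 61.4, 54.7 and 39.2 at CBMD, was 2.77-fold and 1.57-fold lower. Counts of lower members were 7 of 11 and 8 of 9 for H3 and 9 of 13 and 12 of 13 for H4. In all, 7 members were within 1.5-fold at both sites: Hist1h1a, Hist1h2ab, Hist1h2ai, Hist2h2ac, Hist2h2be, Hist1h3f and Hist1h4d, of which some are named here only after their values were seen. Most genes were within 1.5-fold at each site, with 8.88% lower and 26.5% higher at CBMA and 12.0% and 21.9% at CBMD.

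At 12m the sum in cycling cells was 1.80-fold lower than at 02m at CBMA (ratio 0.557) and 2.21-fold lower at CBMD (0.453). Lower by 1.5-fold or more were 45 of 62 members at CBMA, against 16.7% of genes, and 49 of 60 at CBMD, against 14.4%. None was that much higher at CBMA, where 23.7% of genes were, and Hist2h2be alone at CBMD, where 27.7% were. Of 60 members, 38 were lower at both sites, as were 7.59% of genes. These values rest on the libraries that went against the stated sex, and they share the 02m libraries with the comparison above.

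Between 12m and 18m members differed in both directions. In cycling cells 23 of 57 were at least 1.5-fold lower at 18m and 11 higher at CBMA, against 9.25% and 16.7% of genes, and 16 of 56 lower and 11 higher at CBMD, against 13.1% and 6.12%. At both sites 12 were lower, with Hist1h2ac, Hist1h2an, Hist1h2be and Hist1h2bk among them, and 9 higher, where 3.04% and 2.62% of genes were. The 9 higher were Hist1h1a, Hist1h1b, Hist1h2ab, Hist1h2ae, Hist1h3c, Hist1h3f, Hist1h4a, Hist1h4h and Hist2h2ac. No H2B gene was higher at either site, where 8 of 16 were lower at CBMA and 8 of 15 at CBMD.

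Other genes of the cell cycle and of histone handling gave a different picture in the same cycling cells. Genes of S phase, taken from a common list, summed to 3222, 3245 and 3431 CPM at CBMA and 2925, 3409 and 3206 at CBMD. At 18m against 02m 1 of 39 was at least 1.5-fold lower and 2 higher at CBMA, and 1 lower and 4 higher at CBMD. Over all genes 8.88% were lower and 26.5% higher at CBMA, and 12.0% and 21.9% at CBMD. The same shares stand beside the counts of the lists that follow for this comparison. Pcna, the sliding clamp of DNA polymerases, stood at 294, 328 and 385 CPM at CBMA and 254, 422 and 353 at CBMD, so it was lowest at 02m at both sites. Atad2, a chromatin ATPase, was also lowest at 02m at each site, at 181 and 174 CPM, while Rfc2, a subunit of the clamp loader, was highest there, at 139 and 124.

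Genes of G2 and M phase summed to 12773, 11401 and 11510 CPM at CBMA and 14406, 9624 and 11313 at CBMD. Of 51, none was lower and 4 higher at CBMA at 18m, and 4 lower and 1 higher at CBMD. Hmgb2, a chromatin-binding protein, stood at 5083, 3840 and 3509 CPM at CBMA and 6033, 3042 and 3448 at CBMD, while Lbr, a protein of the inner nuclear membrane, was lowest at 02m at both sites, at 296 and 325 CPM. Cks2, a partner of cyclin-dependent kinases, ran from 367 to 413 CPM at CBMA and from 314 to 468 at CBMD. The gate genes, on which the cells were selected, were higher at 18m: Mki67 stood at 692 CPM in CBMA_02m and 1093 in CBMA_18m, and 690 and 1106 at CBMD, and Top2a at 602 and 798, and 631 and 796.

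Genes that transcribe and process histone RNA summed to 963, 1141 and 1140 CPM at CBMA and 948, 1042 and 1073 at CBMD, and 1 of 21 was lower and 3 higher at CBMA at 18m, and 1 lower and 2 higher at CBMD. Slbp stood at 139, 232 and 201 CPM at CBMA and 131, 164 and 153 at CBMD, lowest at 02m at both sites where histone RNA was highest. Ccna2, the cyclin of S and G2 phase, ran from 136 to 169 CPM over the 6 libraries, and Upf1, a helicase of RNA decay, from 47.4 to 67.6. Histone chaperones, which carry histones to DNA, summed to 2959, 2719 and 3186 CPM at CBMA and 3049, 3572 and 3332 at CBMD, with 1 of 21 lower at CBMA, none at CBMD and none higher. Npm1 stood at 699 and 598 CPM in CBMA_02m and CBMA_18m and 751 and 724 at CBMD, Atrx at 212 and 304, and 226 and 335, and Nap1l1 at 260.3 and 295, and 311 and 322.

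Genes of replication-independent histones lay between these groups and the members. They summed to 8783, 5884 and 6421 CPM at CBMA and 9539, 7794 and 6114 at CBMD, with 4 of 10 lower at 18m at CBMA and 6 of 10 at CBMD and none higher. H3f3b stood at 2035 CPM in CBMA_02m and 1183 in CBMA_18m, and 1979 and 1194 at CBMD. H3f3a, the other gene of the same variant H3, stood at 1989.6 CPM in CBMA_02m and 1586 in CBMA_18m, with 2378 and 1370.4 at CBMD. H2afz, an H2A variant, stood at 2144 and 1901 CPM, with 2415 and 1759.6 at CBMD.

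**Figure D4:**
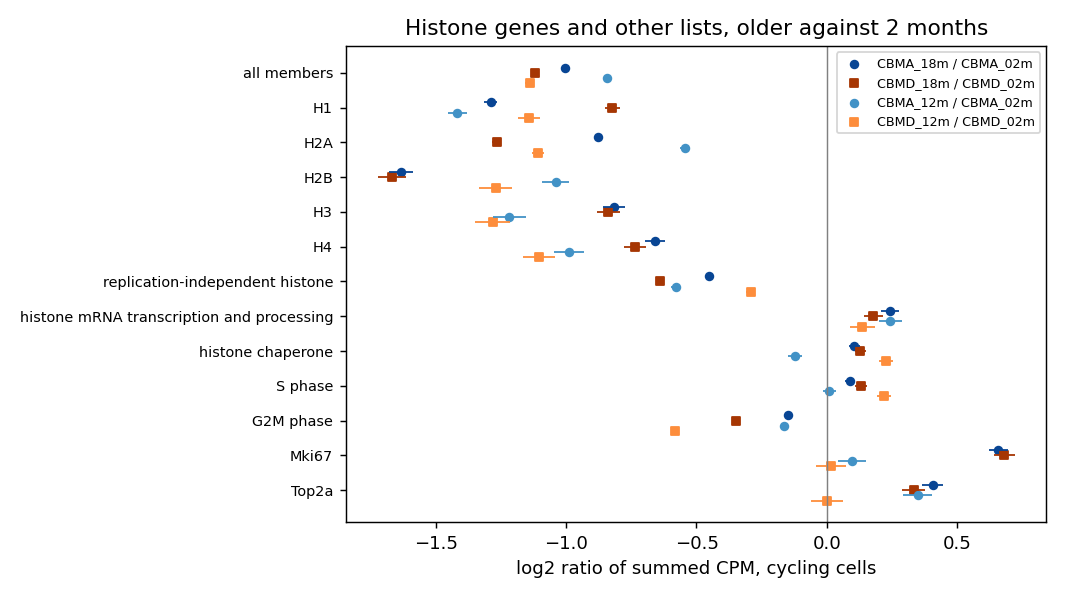
Points give the log2 ratio of summed CPM in cycling cells at 18m or 12m over 02m for the members, their families, the other gene lists and the 2 gate genes (circles for CBMA, squares for CBMD, dark for 18m, light for 12m), with 95% counting intervals as lines. All histone families lie left of -0.5, and the lists of S phase, histone RNA processing and chaperones lie within 0.3 of 0.

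The cycling cells of the libraries were not of the same classes. Monocyte or macrophage-like cells were 56.9% of cycling cells in CBMA_02m and 38.1% in CBMA_18m, and 77.3% and 42.3% at CBMD, and erythroid cell-like cells 0.8% and 13.5%, and 0.1% and 12.6%. Within monocyte or macrophage-like cycling cells the members stood at 14432 CPM in CBMA_02m and 8746 in CBMA_18m, and 15279 and 8335 at CBMD. Within myeloid progenitor-like cells they stood at 22003 and 7096 CPM at CBMA and 14924 and 3979 at CBMD. At both sites all 5 classes with at least 20 cycling cells at both ages were lower at 18m, with ratios of 0.086 to 0.606 at CBMA and 0.262 to 0.749 at CBMD. Erythroid cell-like cells had too few cycling cells at 02m for this, 17 and 2. Over all their cells at CBMA they were higher at 18m, at 10041 against 6026 CPM, a ratio of 1.67 (1.59 to 1.74), and 78.7% of them were cycling against 27.0%. Mesenchymal cell-like cells, all cells, had a ratio of 1.06 (0.923 to 1.22) at CBMA, and the other 9 of 11 classes there were lower. With classes weighted equally the ratio at CBMA was 0.331 instead of 0.498. Most cycling monocyte or macrophage-like cells were in a cluster led by cell-cycle genes, cluster 5, with 1141 of 1279 in CBMA_02m and 214 of 283 in CBMA_18m. Cycling neutrophil-like cells, which had the lowest ratio at CBMA, were mostly in cluster 10 in CBMA_02m, 160 of 189, but not in CBMA_18m, 21 of 56.

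Position within the cycle also differed between the libraries. Cycling cells were put into 4 bins of about equal size by the share of S-phase UMIs among their S and G2M UMIs, bin 1 having the lowest S share. Of 6145 cells, 5971 had the 10 such UMIs required. In CBMA_02m 27.8% of cells fell in bin 1 and 23.6% in bin 4, in CBMA_18m 18.1% and 32.0%, in CBMD_02m 34.2% and 19.5%, and in CBMD_18m 17.7% and 31.0%. Histone level was highest in bins 2 and 3 in every library, at 19494 and 18191 CPM in CBMA_02m and 10672 and 10456 in CBMA_18m. Pooled over libraries, 44 members were highest in bin 2, 18 in bin 3, Hist1h2bc in bin 1 and Hist3h2bb-ps in bin 4. The share of all genes that were highest in each bin is not given here, so these counts describe the members only. Libraries did not always share the pooled highest bin: 6 did for Hist1h3c, 3 for Hist1h2ap and 1 for Hist1h2an. Hist1h4a and Hist1h1a, for example, were highest in bin 3, at 42.9 and 133 CPM, and Hist1h3c in bin 2, at 326. In each bin the level was lower at 18m than at 02m, with ratios of 0.331, 0.547, 0.575 and 0.493 from bin 1 to 4 at CBMA and 0.383, 0.453, 0.483 and 0.543 at CBMD. The part of class make-up, cycle position, depth and the gene limit in the age differences was not tested beyond these values.

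**Figure D5:**
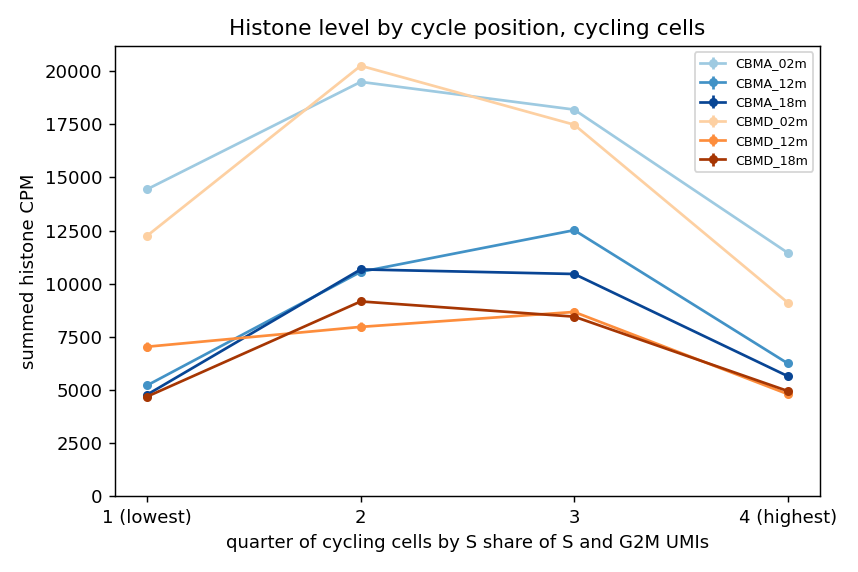
Lines give summed histone CPM of cycling cells (vertical axis) by bin of the S-phase share of their S and G2M UMIs (horizontal axis, 1 lowest) for the 6 libraries, with 95% counting intervals as bars. Both 02m lines lie above the 4 later ones in every bin, from 14446 and 12259 CPM in bin 1 against 4691 to 7035.

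Histone UMIs were also found in cells below the gate, at a lower level at later ages. Non-cycling cells stood at 2491, 1083 and 585 CPM at CBMA and 2048, 925 and 564 at CBMD, 4.26-fold and 3.63-fold lower at 18m. Lower by 1.5-fold or more were 44 of 48 members at CBMA, where 9.75% of genes were, and 46 of 48 at CBMD, where 14.3% were. Members and genes were measured on UMIs summed over both ages. Some members thus passed only through 02m and could hardly come out other than lower. Hist1h2an, for example, stood at 3.43 CPM in CBMA_02m and 0.03 in CBMA_18m. The median log2 ratio over members was -2.54 and -2.13, beside 0.28 and 0.13 over all genes. Hist1h2ao had no UMI in non-cycling cells of CBMA_18m, and the CBMA median was the same with it set at 3 counts. Hist2h3c2 alone was at least 1.5-fold higher, at CBMA, where 34.0% of genes were, and none at CBMD, where 23.1% were. In these non-cycling cells Hist1h2ap stood at 489, 281 and 50.5 CPM at CBMA and 467, 186 and 48.4 at CBMD, and Hist1h1b at 98.8, 26.9 and 7.44, and 52.4, 19.3 and 6.87. Genes of G2 and M phase were lower in the same cells: 27 of 51 at CBMA and 24 of 50 at CBMD were lower at 18m by 1.5-fold or more, with median log2 ratios of -0.69 and -0.48, while of the S phase genes 6 of 37 and 3 of 39 were. At 12m against 02m the median log2 ratio of the members was -0.89 at CBMA and -1.11 at CBMD, beside 0.46 and 0.23 over all genes and 1.01 and 0.05 over G2 and M phase genes. Hist1h1c differed less, with non-cycling values of 317, 171 and 120.5 CPM at CBMA and 254, 184 and 131 at CBMD.

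The non-cycling classes differed in size of this gap. Monocyte or macrophage-like cells stood at 3557, 912 and 428 CPM at CBMA and 3109, 842 and 440.1 at CBMD. Their clusters differed by age: cluster 18, led by C1q genes, held 3 of 1315 in CBMA_02m and 154 of 563 in CBMA_18m. At CBMD it held 11 of 1146 at 02m and 95 of 591 at 18m. Cluster 5, led by cell-cycle genes, held 124 and 15 at CBMA and 102 and 29 at CBMD. T or NK cell-like cells stood at 1032, 721 and 226 CPM at CBMA and 869, 653 and 246 at CBMD. Neutrophil-like cells stood at 1908, 1288 and 829 CPM at CBMA and 1575, 965 and 773 at CBMD. Mesenchymal cell-like cells stood at 566, 658 and 533 CPM at CBMA and 655, 483 and 370.4 at CBMD, with a ratio at 18m of 0.941 (0.817 to 1.09) at CBMA and 0.566 (0.461 to 0.691) at CBMD. Endothelial cell-like cells stood at 736, 649 and 332 CPM, and 1094, 416 and 221. In all, 9 of 9 classes at CBMA and 8 of 8 at CBMD had a lower value at 18m. Hist1h2ap in mesenchymal cell-like cells was listed at 17.8, 155 and 18.8 CPM at CBMA and 59.9, 35.6 and 5.01 at CBMD. UMIs in these cells can come from free RNA of the same library, whose histone level over all cells was 4.16-fold and 3.04-fold lower at 18m. The part of free RNA, of cells near the gate and of class make-up in the non-cycling values was not tested.

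The cycling ratio and the age ratio are set here beside sequence features that the selection did not use. The 13 members with the letters AATAAA after the stem-loop in the annotated transcript had a median cycling to non-cycling ratio of 3.90, and the 31 with a stem-loop but without those letters 16.3. The 20 members without an annotated stem-loop had a median of 16.9, and all 44 with one 11.0. The 17 members whose annotated end lies over 300 bases past the stem-loop had a median of 6.51, and the 21 whose end lies within 60 bases 17.2. Both groups are wide, from 0.80 to 24.9 and from 3.98 to 61.9. The letters AATAAA were searched for only in the annotated bases past the stem-loop, so that split is not independent of the one by annotated end. For 18m against 02m in cycling cells the medians of the far-end and near-end groups were -1.54 and -1.59 on the log2 scale at CBMA and -1.45 and -1.31 at CBMD. By position, the members at chr13:21715763-21837530, 17 measured at CBMA and 16 at CBMD, had medians of -1.59 and -1.61, and the 28 measured of the block at chr13:23531050-23764406 -1.11 and -1.25. Members share blocks, sequence and family, so these groups are not independent.

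Between the sites at 02m, all cells of CBMA_02m stood at 1.36 times CBMD_02m (8808 against 6468 CPM), and 20 of 63 members were at least 1.5-fold higher at CBMA and none lower, against 6.48% and 11.6% of genes. The share of cycling cells there was 26.2% against 17.4%. In cycling cells CBMA_02m stood at 1.07 times CBMD_02m, and 8 of 63 members were at least 1.5-fold higher at CBMA and none lower, against 4.83% and 9.31% of genes. The linker histones made up 3953 CPM in CBMA_02m and 2670.3 in CBMD_02m, a ratio of 1.48, while H3 and H4 had ratios of 1.01 and 0.99. For all members in cycling cells the ratio of the sums was 1.16 at 18m and 1.32 at 12m. Over all cells CBMA stood at 2118 against 2127 CPM in CBMD at 18m, and at 3767 against 2084 at 12m.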

How the data were processed

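Cells of 6 droplet libraries (10x Genomics 3′ chemistry) were analysed. Per the labels and the study's methods, the authors made the deposited UMI counts per gene and barcode with bcl2fastq and Cell Ranger on GRCm38. The counts were used as deposited. Cells with 500 to 5000 genes, at least 500 UMIs and at most 25% mitochondrial UMIs were kept, and genes seen in more than 3 cells. Counts were summed per library and stratum and given as CPM (base 1000000). Genes with at least 50 UMIs summed over both libraries compared were measured, so a gene could pass through 1 of them alone. Cells were clustered with the histone genes, Mki67 and Top2a left out (2000 variable genes, 10 principal components, 20 neighbors, Leiden resolution 0.8), and clusters were named from marker lists. Classes needed 20 cells. Doublets (Scrublet, 0.8% per 1000 barcodes, 2393 cells) stayed in and were left out as an alternative. Scripts were checked on simulated data. Python 3.11.15, numpy 2.4.6, pandas 2.3.3, scipy 1.17.1, scanpy 1.11.5 and leidenalg 0.10.2 were used.

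The members, gene lists and comparisons were chosen with earlier results of these data known. Genes named were the 3 members of each family with most UMIs, the 3 highest and 3 lowest cycling to non-cycling ratios, members 1.5-fold or more apart the same way at both sites, and the 3 genes with most UMIs of each list plus Mki67 and Top2a. The alternative without the upper gene limit and the values without the 12m libraries were added after seeing the data. With 1 pooled library per condition no test was run.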

Additional observations from a re-analysis of the deposited data

Results flagged for a closer look

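For 5 members the ratio between ages was at least 1.5-fold in opposite directions at the 2 sites, and the difference between the sites was not tested. These were 4 of 59 members measured at both sites for 18m over 12m in all cells. In non-cycling cells it was 1 of 48 for 12m over 02m. The other comparisons of ages gave no such member, and the share of all genes with opposite ratios is not given here. Over all cells, the log2 ratio of 18m to 12m was -0.71 at CBMA and 0.66 at CBMD for Hist1h2ai, -0.76 and 0.93 for Hist1h2ak, -0.63 and 0.59 for Hist1h2bm, and -0.82 and 0.76 for Hist2h2ab. In non-cycling cells, the log2 ratio of 12m to 02m was -1.09 at CBMA and 0.71 at CBMD for Hist3h2ba. All 5 comparisons use a 12m library.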

How the results depend on the processing

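Each condition was 1 pooled library, so the spread between mice is unknown and counting error is the only error given. Of 88 alternative values 26 stayed, 62 moved and 0 reversed. A value stayed if it was within the counting interval or, for counts of members, within 1.5 times. The counts of lower members (46 and 50) were among those that stayed. For them the upper limit lay above the number of members measured, so a rise could not have been labelled as moved. They ran from 43 to 54 at CBMA and from 47 to 52 at CBMD. Ratios to 02m follow in the order CBMA 18m, CBMD 18m, CBMA 12m, CBMD 12m, and the cause of each shift was not tested. Over all cells they were 0.215, 0.306, 0.343 and 0.293 with median-of-ratios size factors, 0.390, 0.408, 0.506 and 0.425 with all deposited barcodes, 0.249, 0.387, 0.343 and 0.327 without Hist1h2ap, and 0.393, 0.414, 0.509 and 0.431 without the upper gene limit, an alternative chosen after seeing the data. With doublets left out the first, second and last were 0.244, 0.323 and 0.316. In cycling cells they were 0.432, 0.423, 0.4999 and 0.409 with size factors, 0.409, 0.424, 0.444 and 0.388 with a gate of 1 UMI, 0.566, 0.491, 0.602 and 0.484 with a gate of 4 UMIs, 0.550 (0.5497), 0.507, 0.592 and 0.528 with a gate on thinned cells, 0.489, 0.542, 0.424 and 0.425 without Hist1h2ap, and 0.331, 0.447, 0.389 and 0.483 with classes weighted equally. The leading 3 were 0.603, 0.500 (0.5002) and 0.630 (0.6299) with all barcodes and 0.605, 0.503 and 0.634 without the upper limit, and CBMA 18m was 0.507 with doublets left out. The lowest cycling to non-cycling ratio, 6.31, was 5.56 with all barcodes, 6.37 without doublets, 5.30 with a gate of 1 UMI, 5.83 with a gate of 4, 3.20 with the thinned gate and 5.13 without Hist1h2ap. The ratio of cycling shares at 18m to 02m, 0.392 at CBMA, was 0.499 with a gate of 1 UMI, 0.349 with a gate of 4, 0.456 with thinned cells and 0.479 without the upper limit. At CBMD it was 0.668, and 0.833 with thinned cells and 0.742 without the limit. No paired analysis was possible because each age and site was 1 library with replicate number 1, which leaves no replicate within a group. A model that takes the 3 ages as pairs of sites was not run.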
